A study of Mus musculus with 15 samples.

Results

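A set of 34 genes that act in mitosis and cell division was followed through forebrain RNA of 5 groups of wild-type mice. The genes were chosen by name for their role in mitosis, with earlier results of these data known. All 34 were found among the 55487 gene identifiers of the count table. Dividing cells switch these genes on together late in the cell cycle: kinases and cyclins start mitosis, condensins compact the chromosomes, kinetochores and the spindle checkpoint attach and count them, motors pull them apart, and the cytokinesis machinery cuts the cell. Neurons have left the cell cycle, so in adult forebrain such transcripts are known from the few cells that still divide, chiefly progenitors of the ventricular wall and hippocampus, oligodendrocyte precursors, and microglia or other immune cells when they expand. In bulk tissue, fewer cells of a type and less RNA per cell cannot be told apart.

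The study sequenced RNA from frozen forebrain in 15 libraries, 3 in each group, all of genotype WT. Untreated brains are called NT. Brains treated with what the labels name PLX 1x are called PLX1X, those named PLX 3x carry PLX3X_CD0 in their library names, those titled as PLX treated without a dose carry PLX3X_CD30, and those titled IR-BMT have library names ending in IR and are called IR. None of the abbreviations PLX, CD0, CD30 and IR-BMT is explained in the labels, and ages are not given. Nor is it said whether each library stands for 1 animal; the p-values then reflect no more than the scatter among libraries, which may be technical.

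Library totals ran from 19249641 counts in NT replicate 1 to 54801136 in PLX3X_CD0 replicate 3. Levels are given as TMM-scaled CPM, in which each count is divided by its library's scaled total, with mean ± SD where groups are summarised (n = 3). Each log2 fold change stands with its standard error (SE) from an edgeR quasi-likelihood fit, and every adjusted p is from that fit with Benjamini-Hochberg adjustment over the 21780 genes tested. A gene was called where its adjusted p was under 0.05, and "rose" or "fell" is written of called genes alone. Markers of forebrain neurons were abundant, with a summed level from 5916 to 8451 CPM across libraries. PLX3X_CD0 replicate 1 and IR replicate 1 stood apart in a summed list of 7 ependymal and choroid plexus markers, at 1621 and 493 CPM, against 14.6 to 54.1 CPM in the other libraries, and results are given without these libraries where they matter.

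The promoters of 4 members are shown because the genes differed in how they behaved: Mki67, Top2a and Smc2 were lower in IR than in every other group, and Cdc20 was not. Each line gives the 200 bases before the RefSeq start on GRCm38.p6 (mm10), read 5′ to 3′ on the gene's strand. Capitals mark TTTGAA, the core of the cell cycle genes homology region, and CCAAT, the NF-Y box, each on either strand (reverse complements TTCAAA and ATTGG). The stretches lie at chr7:135716380-135716579 (minus strand, Mki67), chr11:99024190-99024389 (minus, Top2a), chr4:52439021-52439220 (plus, Smc2) and chr4:118437344-118437543 (minus, Cdc20).
Mki67: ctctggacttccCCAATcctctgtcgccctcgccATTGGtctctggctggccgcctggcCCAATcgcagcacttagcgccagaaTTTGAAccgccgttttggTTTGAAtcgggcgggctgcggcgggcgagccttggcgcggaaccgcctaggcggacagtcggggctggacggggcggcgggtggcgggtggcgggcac
Top2a: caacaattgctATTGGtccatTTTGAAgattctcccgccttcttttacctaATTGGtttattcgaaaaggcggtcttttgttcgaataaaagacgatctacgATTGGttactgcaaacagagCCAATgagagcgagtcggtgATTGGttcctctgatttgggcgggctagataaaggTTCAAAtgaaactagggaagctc
Smc2: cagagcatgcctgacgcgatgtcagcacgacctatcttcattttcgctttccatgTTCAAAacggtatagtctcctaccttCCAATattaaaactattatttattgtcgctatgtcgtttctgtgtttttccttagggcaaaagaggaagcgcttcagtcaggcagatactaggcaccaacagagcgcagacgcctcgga
Cdc20: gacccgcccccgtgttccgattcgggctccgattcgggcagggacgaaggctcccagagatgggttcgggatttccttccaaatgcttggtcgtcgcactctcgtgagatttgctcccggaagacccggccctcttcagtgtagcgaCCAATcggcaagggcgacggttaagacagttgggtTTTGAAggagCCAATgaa

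In these stretches Mki67 had 2 matches to TTTGAA and 3 to CCAAT. Top2a had 2 and 5, Smc2 had 1 of each, and Cdc20 had 1 and 2. In the wider RefSeq window of 300 bases (250 before the start and 50 after), 30 of the 34 members had an entry. Aurkb, Ccna2, Kif20a and Tpx2 had none. TTTGAA was present in 24 of the 30 members (80%) and in 20.2% of 27025 genes with a promoter entry, and CCAAT in 24 (80%) and 41.1%. Both occurred in 21 members (70%) and in 7.97% of all genes. A match is a description of the letters and not a shown binding site, and members with and without a match are found both among the genes that fell in IR and among those that did not.

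All members were weakly expressed in this tissue. Summed over the 34 genes, the raw counts were 980, 1722 and 2415 in the NT libraries, 2563, 2161 and 1819 in PLX1X, 2013, 2074 and 1979 in PLX3X_CD0, 1476, 1683 and 1667 in PLX3X_CD30, and 982, 1046 and 1080 in IR. Every member had a count in every library, but up to 9 members per library had fewer than 10 counts, the most in IR replicate 1. Mean levels over all libraries ran from 0.21 CPM for Bub1, a checkpoint kinase, to 6.01 CPM for Smc2, a condensin subunit that alone made up 14.9% of the summed level, and 18 members averaged under 1 CPM. Per kilobase of the longest annotated transcript, Smc2 was again the highest at 1.11 CPM per kb, ahead of Cdc20 at 1.02, and Bub1 was the lowest at 0.0614. All 34 passed the filter on low counts.

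The summed level of the set was lower in IR than in any other group. It was 46.7, 42.6 and 44.5 CPM in the NT libraries, 47.4, 47.9 and 44.8 in PLX1X, 40.8, 40.2 and 36.9 in PLX3X_CD0, 38.5, 43.9 and 42.8 in PLX3X_CD30, and 30.9, 29.1 and 28.3 in IR. The IR libraries lay below all 12 others, and PLX3X_CD0 lay below NT and PLX1X without overlap, while NT overlapped PLX1X and PLX3X_CD30. The group means were 44.6 ± 2.03, 46.7 ± 1.68, 39.3 ± 2.09, 41.7 ± 2.86 and 29.5 ± 1.34 CPM in that order (SD, n = 3), so that IR held 66.1% of the NT mean and PLX3X_CD0 88.1%. The sum is a description without a test.

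**Figure D1:**
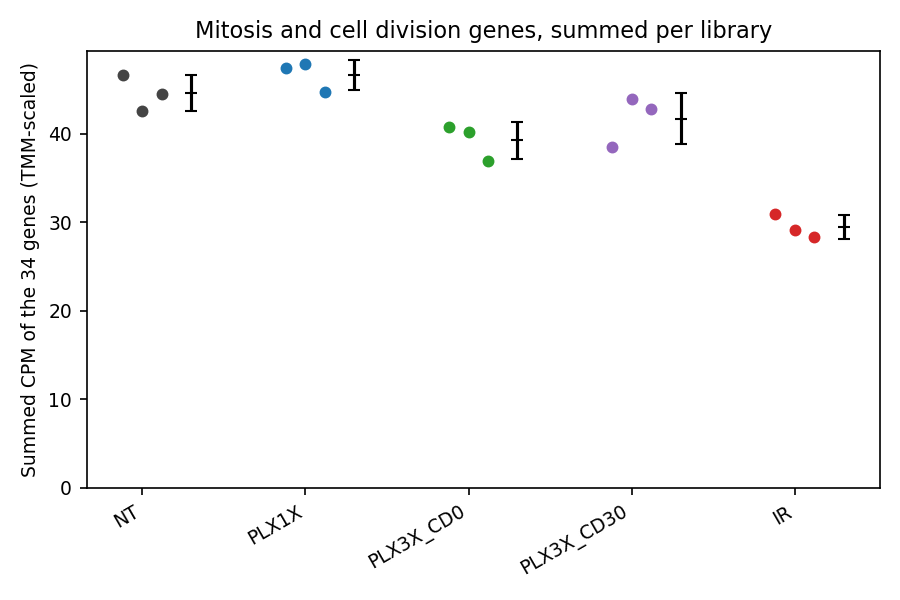
Summed TMM-scaled CPM of the 34 mitosis and cell division genes in each library (points) with the group mean and SD (bars, n = 3), by group. The 3 IR libraries lie between 28.3 and 30.9 CPM, below every library of the other groups.

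By role, the genes of chromosome structure held the smallest share of their NT level in IR. This group of 4, with the proliferation marker Mki67, the DNA topoisomerase Top2a and the condensin subunits Smc2 and Ncapg, summed to 10.8 ± 1.66 CPM in NT and 5.08 ± 0.181 CPM in IR, or 47.0% of NT. The 3 members from the chromosomal passenger complex held 57.9%, the 12 genes of spindle motors, midzone and cytokinesis 72.5%, the 6 entry kinases and cyclins 72.6%, and the 9 genes of the kinetochore, checkpoint and anaphase-promoting complex 79.3%. In PLX1X the same 5 role groups held 103%, 77.5%, 102%, 121% and 117% of the NT mean.

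Against NT, 9 of the 34 members fell in IR and none rose, where 30.6% of all genes tested were called and 15.4% were lower. Mki67, Smc2, Top2a, Nusap1, Aurkb, Cenpf, Kif4, Ect2 and Cdca8 were the genes called. The log2 fold change was below 0 for 30 members, with a median of -0.62 over the set and of -0.05 over all genes, of which 54.5% were below 0. The IR libraries lay below all NT libraries in 17 members, and such a separation was seen in 21.2% of all genes. Among the 9049 genes with mean levels in the range of the members, 11.8% were lower in IR.

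Against PLX1X, 9 members also fell in IR and none rose, with 28.5% of all genes called and 14.6% lower. All 34 had a log2 fold change below 0, as had 48.7% of all genes, and the median was -0.62. Against PLX3X_CD30, 6 members fell, with 16.5% of all genes called and 8.88% lower; the median was -0.56. Against PLX3X_CD0, 5 members fell, with 21.5% of all genes called and 11.4% lower, and the median was -0.39. IR libraries lay wholly below those of PLX1X in 22 members (21.5% of all genes), of PLX3X_CD30 in 13 (18.6%) and of PLX3X_CD0 in 9 (19.9%). Among genes at the members' levels, 3.97%, 3.01% and 2.59% were lower in IR than in PLX1X, PLX3X_CD30 and PLX3X_CD0. These comparisons all use the same 3 IR libraries, so their counts are not independent of each other.

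Over the 4 comparisons, 14 members fell in IR at least once. Mki67, Top2a, Smc2 and Ect2 fell in all 4. The shares of all genes that fell at least once or in all 4 were not counted, so these numbers stand without a background. All IR libraries lay below all libraries of the 4 other groups in 6 members and in 6.94% of all genes tested. Cenpf and Kif4 fell against NT and PLX3X_CD30, and Nusap1 against NT and PLX1X. Aurkb and Cdca8 fell against NT alone, Ccna2, Ccnb1, Cenpe and Ckap2l against PLX1X alone, and Tpx2 against PLX3X_CD0 alone. The group mean was lowest in IR for 28 of the 34 members, which was so for 29.6% of all genes tested. IR was the highest group for none of the members and for 26.0% of all genes tested.

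**Figure D2:**
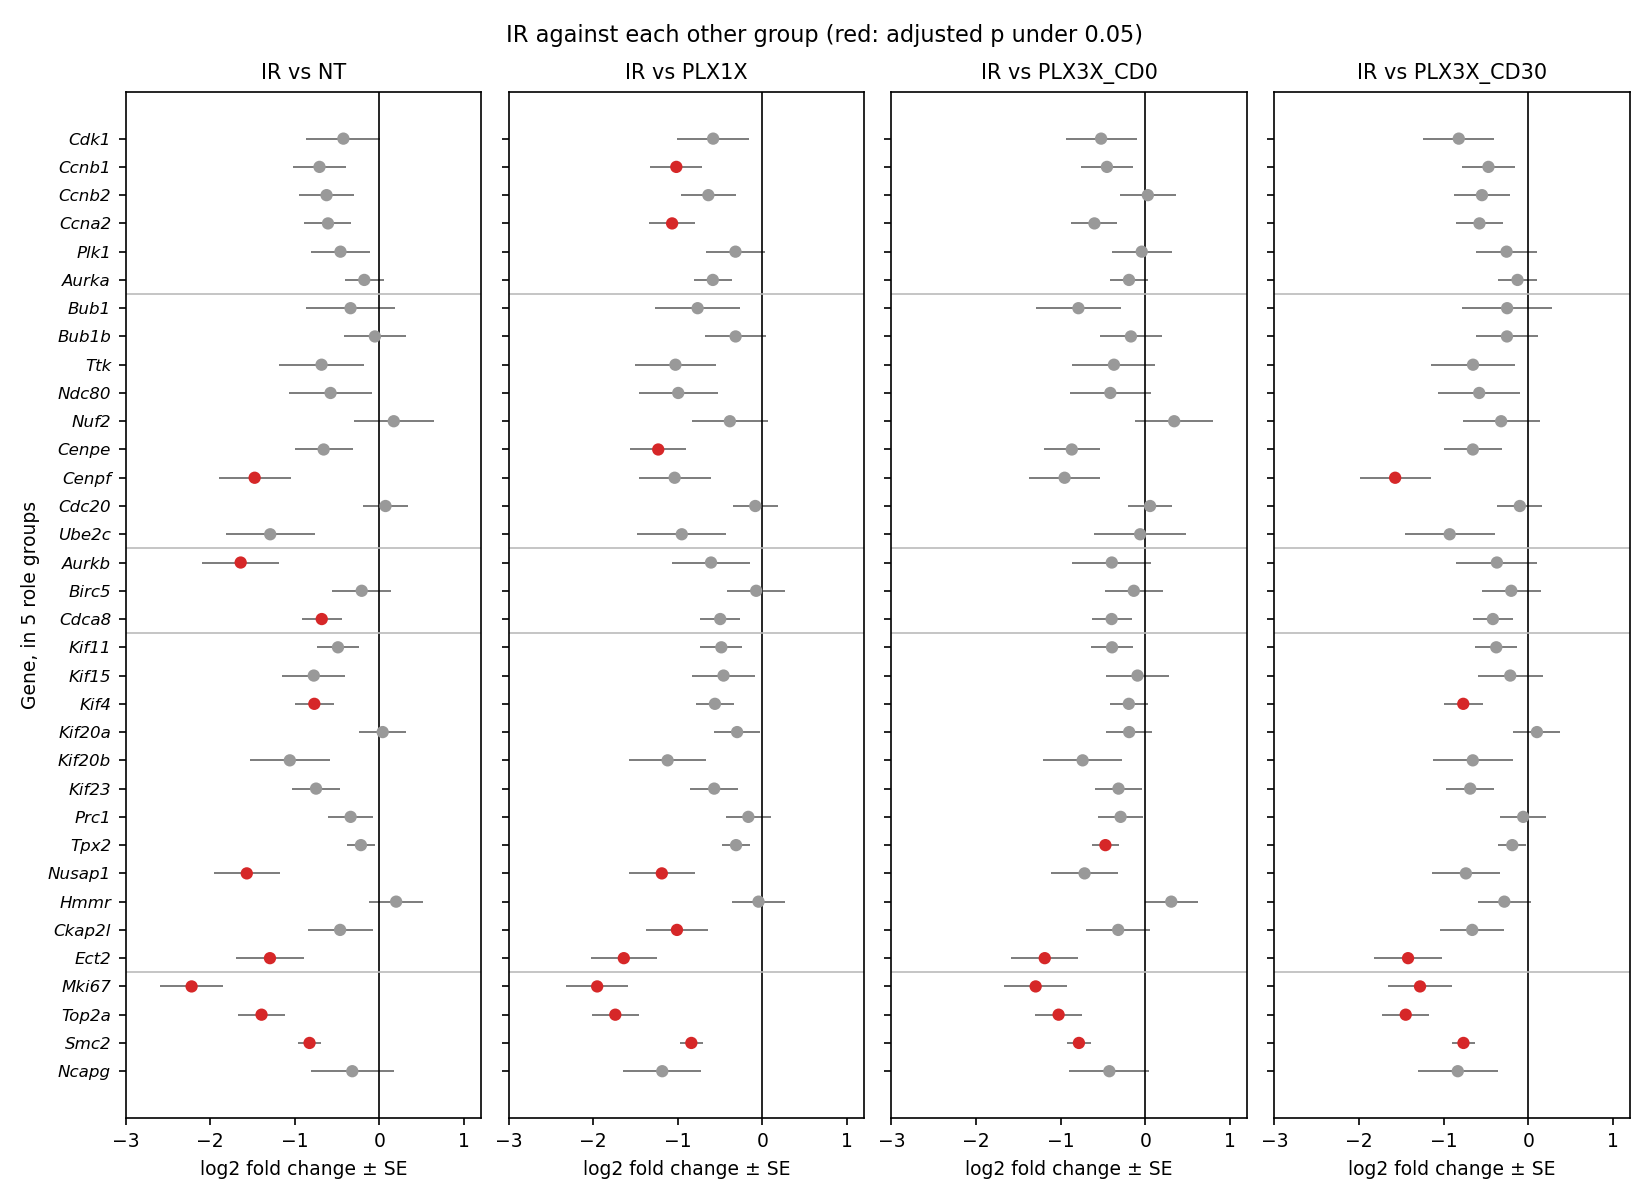
Log2 fold change of IR against NT, PLX1X, PLX3X_CD0 and PLX3X_CD30 for the 34 genes in 5 role groups (points) with the SE (bars), and red where the adjusted p was under 0.05. All red points lie left of 0, with 9, 9, 5 and 6 in the panels from left to right.

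Among the genes of chromosome structure, Mki67 (ENSMUSG00000031004, chr7:135689784-135716361, minus strand), whose protein coats mitotic chromosomes and marks cycling cells, had the lowest fold change. Its level was 3.19, 1.58 and 1.58 CPM in NT, 1.44, 2.41 and 1.28 in PLX1X, 1.24, 1.24 and 0.783 in PLX3X_CD0, 1.1, 1.04 and 1.08 in PLX3X_CD30, and 0.63, 0.446 and 0.262 in IR, from 67, 64 and 86 raw counts in NT and 20, 16 and 10 in IR. All IR libraries were below all others, and both PLX3X groups were below NT without overlap. Against NT the IR log2 fold change was -2.22 ± 0.37 (adjusted p = 0.000167), which left 21.0% of the NT mean. PLX3X_CD0 and PLX3X_CD30 held 51.3% and 50.6% of the NT mean, with log2 fold changes of -0.92 ± 0.33 (adjusted p = 0.0517) and -0.94 ± 0.34 (adjusted p = 0.102) that did not pass the threshold. The first passed in 9 of 21 alternatives, among them DESeq2 (adjusted p = 0.0341) and the replicate block (adjusted p = 0.0314). Over the 21, its adjusted p ranged from 0.0253 to 0.27 and its log2 fold change from -1.10 to -0.54. The second passed in 1, where low counts were not filtered (adjusted p = 0.0443). NT replicate 1, at 3.19 CPM, raised the NT mean on which these percentages rest. IR was lower than both PLX3X groups too, by log2 fold changes of -1.30 ± 0.37 (adjusted p = 0.0174) and -1.28 ± 0.38 (adjusted p = 0.026), and lower than PLX1X by -1.95 ± 0.37 (adjusted p = 0.000552). The call against PLX3X_CD0 was lost without PLX3X_CD0 replicate 1 or 2 or IR replicate 2 or 3, and the call against PLX3X_CD30 without any one PLX3X_CD30 library or IR replicate 2 or 3. The highest adjusted p values, both without IR replicate 3, were 0.103 and 0.138.

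Top2a (ENSMUSG00000020914, chr11:98992943-99024189, minus strand) encodes the topoisomerase that untangles sister chromatids. It stood at 1.57, 1.41 and 2.21 CPM in NT, 2.35, 2.22 and 2.09 in PLX1X, 1.88, 0.97 and 1.21 in PLX3X_CD0, 1.49, 1.96 and 2.0 in PLX3X_CD30, and 0.756, 0.557 and 0.682 in IR. The IR libraries again lay below the 12 others, while the remaining groups overlapped NT. The IR log2 fold change was -1.39 ± 0.28 against NT (adjusted p = 0.000866), -1.74 ± 0.27 against PLX1X (adjusted p = 0.000114), -1.02 ± 0.28 against PLX3X_CD0 (adjusted p = 0.0121) and -1.45 ± 0.28 against PLX3X_CD30 (adjusted p = 0.00172). The difference from PLX3X_CD0 was lost without PLX3X_CD0 replicate 1 (log2 fold change -0.71, adjusted p = 0.0906), the library with the highest choroid plexus sum, and without IR replicate 2 (adjusted p = 0.0662).

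Smc2 (ENSMUSG00000028312, chr4:52439243-52488260, plus strand), a core subunit of both condensins, was the most abundant member and had the smallest SE in IR against NT. Its counts were 159, 235 and 365 in NT and 116, 141 and 141 in IR. In CPM these were 7.57, 5.82 and 6.72 in NT and 3.66, 3.93 and 3.7 in IR, with 6.55, 7.44 and 6.2 in PLX1X, 6.74, 5.74 and 6.96 in PLX3X_CD0, and 6.86, 6.68 and 5.65 in PLX3X_CD30. The 4 other groups overlapped one another, and the IR libraries lay apart below them. IR differed from NT by -0.83 ± 0.14 (log2, adjusted p = 0.000183), from PLX1X by -0.84 ± 0.14 (adjusted p = 0.000168), from PLX3X_CD0 by -0.78 ± 0.14 (adjusted p = 0.000498) and from PLX3X_CD30 by -0.77 ± 0.14 (adjusted p = 0.00113). Smc2 was called in all 4 comparisons under each of the 21 alternative settings tried. The PLX groups differed from NT by log2 fold changes between -0.06 and 0.01, none called, with 95% intervals that together ran from -0.34 to 0.29. Ncapg, the fourth gene and a subunit of condensin I, had 2 to 31 counts per library and was called in no comparison.

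**Figure D3:**
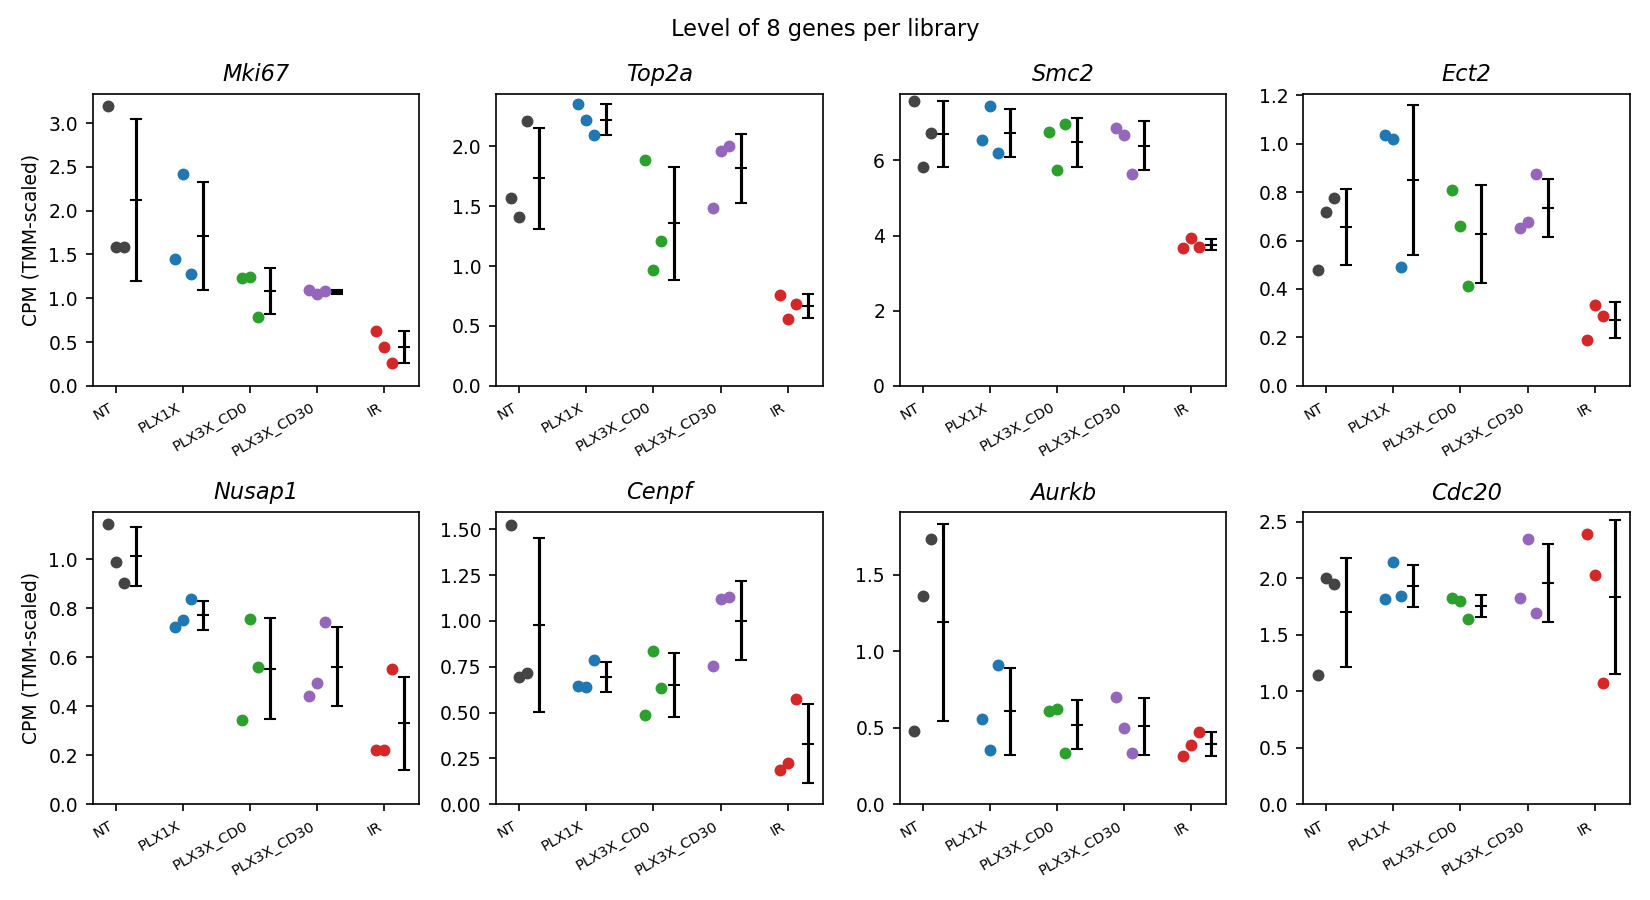
TMM-scaled CPM of 8 of the genes in each library (points) with the group mean and SD (bars, n = 3), each panel on its own axis from 0. In Mki67, Top2a, Smc2 and Ect2 all IR points lie below all others, whereas the IR points of Cdc20, from 1.08 to 2.4 CPM, span those of NT.

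Of the 12 genes of spindle motors, midzone and cytokinesis, 3 fell in IR against NT, where 15.4% of all genes did. Ect2 (ENSMUSG00000027699, chr3:27097222-27153878, minus strand), the exchange factor that switches on RhoA at the division furrow, had 10, 29 and 42 counts in NT and 6, 12 and 11 in IR. Its level was 0.476, 0.718 and 0.774 CPM in NT, 1.04, 1.02 and 0.492 in PLX1X, 0.81, 0.659 and 0.41 in PLX3X_CD0, 0.652, 0.678 and 0.873 in PLX3X_CD30, and 0.189, 0.334 and 0.288 in IR. The IR libraries were the lowest 3 of the 15. The IR log2 fold change was -1.29 ± 0.40 against NT (adjusted p = 0.0195), -1.64 ± 0.39 against PLX1X (adjusted p = 0.00367), -1.19 ± 0.40 against PLX3X_CD0 (adjusted p = 0.0377) and -1.42 ± 0.40 against PLX3X_CD30 (adjusted p = 0.0192). The call against PLX1X held under all 20 alternatives that tested Ect2, but that against NT was lost without NT replicate 3 (adjusted p = 0.0653) or IR replicate 1 (0.0767), that against PLX3X_CD0 in 8 of the 20 (up to 0.15), and that against PLX3X_CD30 without PLX3X_CD30 replicate 3 or IR replicate 1 or 3 (up to 0.0705).

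Nusap1, which bundles spindle microtubules near chromosomes, was at 1.14, 0.99 and 0.902 CPM in NT and 0.221, 0.223 and 0.551 in IR. PLX1X was at 0.722, 0.753 and 0.837, PLX3X_CD0 at 0.344, 0.756 and 0.56, and PLX3X_CD30 at 0.443, 0.496 and 0.744. Each treated group lay below NT without overlap, but IR overlapped the PLX3X groups. Nusap1 fell in IR by 1.57 ± 0.39 on the log2 scale against NT (adjusted p = 0.00483) and by 1.19 ± 0.39 against PLX1X (adjusted p = 0.0281). The call against NT held under all 20 alternatives that tested it, and the call against PLX1X was lost without any one of the PLX1X libraries or IR replicate 1 or 2, up to adjusted p = 0.129.

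Kif4, a chromosome-bound motor that sets the length of the central spindle, was at 1.62, 1.93 and 1.82 CPM in NT, 1.44, 1.42 and 1.82 in PLX1X, 1.19, 1.01 and 1.42 in PLX3X_CD0, 1.83, 1.57 and 2.0 in PLX3X_CD30, and 1.01, 0.891 and 1.26 in IR. IR and PLX3X_CD0 overlapped and both lay below NT. The IR log2 fold change was -0.77 ± 0.23 against NT (adjusted p = 0.0148) and -0.77 ± 0.23 against PLX3X_CD30 (adjusted p = 0.0258), and that of PLX3X_CD0 against NT was -0.58 ± 0.22 (adjusted p = 0.07, not called). The Kif4 calls against NT and PLX3X_CD30 were lost in 4 and 5 of 21 alternatives, up to adjusted p = 0.0747 and 0.122. Of the exon bases of Kif4, 15.1% are shared with Pdzd11 on the other strand, and the library kit does not mark strand.

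Tpx2, which activates Aurora A and builds spindle microtubules, fell in IR against PLX3X_CD0 alone. It was at 3.02, 3.49 and 3.53 CPM in PLX3X_CD0 and 2.46, 2.34 and 2.44 in IR, with a log2 fold change of -0.47 ± 0.16 (adjusted p = 0.0448) that passed in 5 of 21 alternatives and was lost without any one library of either group. Its NT libraries, at 2.48, 3.22 and 2.69 CPM, did not overlap IR either (log2 fold change -0.22 ± 0.17, adjusted p = 0.348). Ckap2l, a spindle protein of neural progenitors, was at 1.3, 1.42 and 1.08 CPM in PLX1X and 0.819, 0.39 and 0.682 in IR (log2 fold change -1.01 ± 0.37, adjusted p = 0.0471), past the threshold in 11 of 21 alternatives and lost without any one PLX1X library or IR replicate 2 or 3 (up to adjusted p = 0.205).

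The other 7 genes of this role group were called in no comparison. Kif11, the motor that pushes spindle poles apart, was at 2.24, 1.83 and 1.58 CPM in NT and 1.51, 1.39 and 1.08 in IR (log2 fold change -0.49 ± 0.25, adjusted p = 0.152), without overlap. Prc1, which crosslinks the central spindle, was at 1.81, 1.61 and 1.88 CPM in NT and 1.45, 1.45 and 1.29 in IR (-0.34 ± 0.27, adjusted p = 0.369), also without overlap. The mitotic kinesin Kif20a was at 2.38, 1.11 and 1.6 CPM in NT and 1.8, 1.36 and 1.94 in IR (0.04 ± 0.28, adjusted p = 0.938), with a 95% interval from -0.55 to 0.62. Kif20a shares 29.3% of its exon bases with Cdc23 on the other strand. Kif15, Kif20b and Kif23 held 57.5%, 46.3% and 59.1% of their NT means in IR, and Hmmr, a spindle-associated hyaluronan receptor, 114%.

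In the chromosomal passenger complex, which corrects chromosome attachments and then marks the cleavage plane, the kinase Aurkb and the subunit Cdca8 (borealin) fell in IR against NT. Aurkb varied widely within NT, with 10, 55 and 94 counts or 0.476, 1.36 and 1.73 CPM. It was at 0.555, 0.354 and 0.911 CPM in PLX1X, 0.608, 0.621 and 0.336 in PLX3X_CD0, 0.704, 0.496 and 0.334 in PLX3X_CD30, and 0.315, 0.39 and 0.472 in IR. NT replicate 1 lay among the libraries of the PLX groups and just above IR replicate 3, and IR overlapped those groups. The log2 fold change against NT was -1.64 ± 0.45 in IR (adjusted p = 0.00938), -1.24 ± 0.43 in PLX3X_CD0 (adjusted p = 0.0426), -1.27 ± 0.44 in PLX3X_CD30 (adjusted p = 0.0896) and -1.03 ± 0.42 in PLX1X (adjusted p = 0.0999). Without NT replicate 3, the log2 fold change in IR was -1.27 (adjusted p = 0.0588) and in PLX3X_CD0 -0.88 (adjusted p = 0.197). The PLX3X_CD0 call passed in 9 of the 20 alternatives that tested Aurkb and was lost without any one PLX3X_CD0 library.

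Cdca8 was at 2.33, 2.4 and 1.99 CPM in NT and 1.36, 1.5 and 1.31 in IR, and IR fell below NT by 0.68 ± 0.24 on the log2 scale (adjusted p = 0.0361). Its PLX1X libraries were at 2.2, 1.57 and 2.12 CPM, its PLX3X_CD0 libraries at 1.36, 2.35 and 1.79, and its PLX3X_CD30 libraries at 1.75, 1.54 and 2.28. The call was lost in 7 of 21 alternatives, among them the removal of NT replicate 1 or 2 or of any IR library (up to adjusted p = 0.108). Birc5 (survivin), the third member of this role group, held 85.0% of its NT mean in IR and was not called.

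Among the genes of the kinetochore, the checkpoint and the anaphase-promoting complex, 1 of 9 fell in IR against NT, where 15.4% of all genes did. Cenpf, a large protein of the outer kinetochore, was at 1.52, 0.693 and 0.718 CPM in NT, 0.648, 0.642 and 0.788 in PLX1X, 0.486, 0.834 and 0.634 in PLX3X_CD0, 0.756, 1.12 and 1.13 in PLX3X_CD30, and 0.189, 0.223 and 0.577 in IR. IR replicate 3 reached into the range of PLX3X_CD0, and the IR libraries lay below those of the 3 other groups. The IR log2 fold change was -1.48 ± 0.43 against NT (adjusted p = 0.0127) and -1.57 ± 0.42 against PLX3X_CD30 (adjusted p = 0.0145). Leaving out NT replicate 1 ended the call against NT (adjusted p = 0.0643), as did leaving out IR replicate 1 or 2, and leaving out PLX3X_CD30 replicate 2 or IR replicate 1 or 2 ended that against PLX3X_CD30 (up to 0.0838). Cenpe, the kinetochore motor that aligns chromosomes, was at 1.78, 1.53 and 0.935 CPM in PLX1X and 0.914, 0.39 and 0.525 in IR (log2 fold change -1.23 ± 0.33, adjusted p = 0.00859), a call lost without PLX1X replicate 1 (adjusted p = 0.0501) or IR replicate 2 (adjusted p = 0.059).

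Cdc20, the activator of the anaphase-promoting complex, was abundant for this set and did not pass any test. Its level was 1.14, 2.0 and 1.95 CPM in NT, 1.81, 2.15 and 1.85 in PLX1X, 1.82, 1.8 and 1.64 in PLX3X_CD0, 1.83, 2.35 and 1.69 in PLX3X_CD30, and 2.4, 2.03 and 1.08 in IR, so that all groups overlapped. The IR log2 fold change against NT was 0.07 ± 0.27 (adjusted p = 0.875), and its 95% interval ran from -0.49 to 0.64. The checkpoint protein Bub1b and the kinetochore subunit Nuf2 held 102% and 107% of their NT means in IR. The kinases Bub1 and Ttk, the kinetochore subunit Ndc80 and the ubiquitin-conjugating enzyme Ube2c held 80.6%, 59.5%, 63.6% and 41.4%. None of these 6 was called, and Bub1, Ttk and Ube2c had as few as 4, 2 and 6 counts in a library.

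Of the 6 kinases and cyclins that drive entry into mitosis, none fell in IR against NT, where 15.4% of all genes did. The 2 cyclins Ccna2 and Ccnb1 fell in IR against PLX1X, where 14.6% of all genes did. Ccna2 was at 1.24, 1.24 and 1.05 CPM in NT, 1.31, 2.08 and 1.43 in PLX1X, 1.15, 0.95 and 1.38 in PLX3X_CD0, 0.86, 1.49 and 1.08 in PLX3X_CD30, and 0.756, 0.724 and 0.813 in IR. The IR libraries were the lowest 3 of all, and PLX1X lay above NT without overlap. Against PLX1X the IR log2 fold change was -1.07 ± 0.27 (adjusted p = 0.00546), called in all 21 alternatives, and against NT -0.61 ± 0.28 (adjusted p = 0.107). Of its exon bases, 12.5% are shared with Exosc9 on the other strand. Ccnb1, the cyclin partner of Cdk1, was at 1.17, 1.13 and 1.55 CPM in PLX1X and 0.567, 0.557 and 0.761 in IR (log2 fold change -1.02 ± 0.31, adjusted p = 0.0177), a call lost without PLX1X replicate 3 or IR replicate 1 or 2 (up to adjusted p = 0.0779).

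Aurka, the kinase of the spindle poles, was at 1.71, 1.66 and 1.77 CPM in NT, 2.42, 2.64 and 1.75 in PLX1X, 1.4, 2.09 and 1.7 in PLX3X_CD0, 1.49, 2.01 and 1.46 in PLX3X_CD30, and 1.32, 1.5 and 1.7 in IR. It was called in no comparison, with an IR log2 fold change of -0.18 ± 0.23 against NT (adjusted p = 0.605) and -0.59 ± 0.22 against PLX1X (adjusted p = 0.0588). The latter passed in 5 of 21 alternatives, DESeq2 among them (adjusted p = 0.0484), and ranged from 0.0289 to 0.208 over all 21. The catalytic kinase Cdk1 had 9 to 28 counts per library and held 69.6% of its NT mean in IR, and Ccnb2 and Plk1 held 66.0% and 73.4%, none called.

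**Figure D4:**
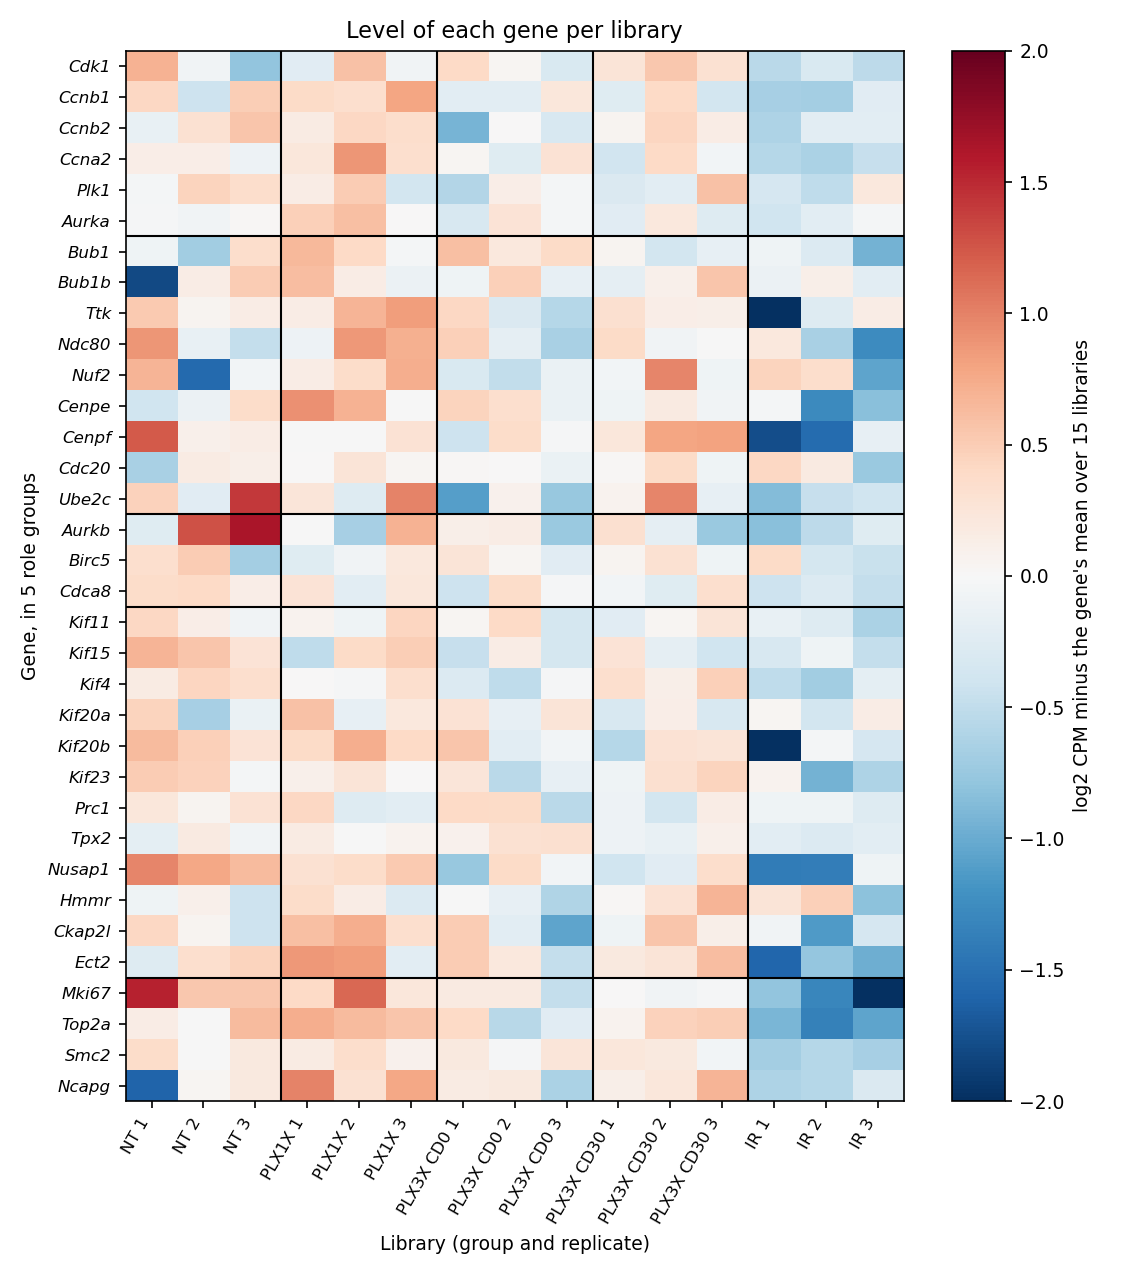
Log2 CPM of each of the 34 genes in each of the 15 libraries, after subtraction of the gene's mean over all libraries; the colour scale stops at 2 in either direction. The 3 IR columns at the right lie below the gene's mean in Mki67, Top2a, Smc2 and Ect2 and on both sides of it in Cdc20, and NT replicate 1 is low in Bub1b and Ncapg, with 8 and 2 counts.

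The PLX groups were compared with NT and with each other in the same way, and the first 3 of these comparisons share the NT libraries. In PLX1X, 0 of 34 members were called by edgeR against NT, where 18.1% of all genes were, and 1 member (Aurkb) had an unadjusted p under 0.05, as had 31% of all genes; DESeq2 also called 0. Among genes at the members' levels 9.35% were called. The median log2 fold change was 0.12 over the members and -0.04 over all genes, and PLX1X had the highest of the 5 group means for 16 members and for 17.2% of all genes. In PLX3X_CD0, 1 of 34 fell (Aurkb, above) and none rose, where 21.7% of all genes were called and 9.53% were lower (9.38% lower among genes at the members' levels); the median was -0.16, and 25 members were below 0, as were 53.5% of all genes. In PLX3X_CD30, edgeR and DESeq2 called 0 members, where edgeR called 6.57% of all genes and 1.61% of those at the members' levels, and 3 members (Mki67, Aurkb and Nusap1) had an unadjusted p under 0.05, as had 21.3% of all genes. Between PLX3X_CD30 and PLX3X_CD0, 0 members were called by either tool, where 3.8% of all genes and 1.98% of those at the members' levels were by edgeR, and 1 (Kif4, higher in PLX3X_CD30) had an unadjusted p under 0.05, as had 15.5% of all genes.

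A list of 74 further mitotic genes, of which 71 were tested, was examined beside the members. In IR against NT, 12 of the 71 fell and 2 rose, where 15.4% of all genes were lower and 15.1% higher, and the list's median log2 fold change was -0.21. Its summed level was 1766 ± 125 CPM in NT and 1800 ± 68.9 CPM in IR, or 102% of NT, and Zwint, a kinetochore gene, alone made up 1168 ± 76.1 CPM of it in NT. The genes with the smallest adjusted p were Anln, the furrow scaffold anillin (29.1 ± 5.78 CPM in NT and 18.3 ± 1.53 in IR, log2 fold change -0.65 ± 0.11, adjusted p = 0.000183), Smc4, the condensin partner of Smc2 (4.98 ± 0.644 and 2.35 ± 0.608 CPM, -1.08 ± 0.19, adjusted p = 0.000235), and Cdca2, which brings a phosphatase to chromosomes as mitosis ends (0.776 ± 0.0152 and 0.21 ± 0.0425 CPM, -1.88 ± 0.37, adjusted p = 0.000665). Smc4 and Anln also fell in IR against each PLX group. Anln and Zwint were far more abundant than any member (at most 6.01 CPM on average), and which cells gave these transcripts was not tested. Against PLX1X, PLX3X_CD0 and PLX3X_CD30, 14, 11 and 7 of the 71 fell in IR and 0, 1 and 0 rose, where 14.6%, 11.4% and 8.88% of all genes were lower and 13.9%, 10.1% and 7.63% higher. In PLX1X, PLX3X_CD0 and PLX3X_CD30 against NT, 5, 6 and 1 rose and 1, 1 and 0 fell, where 9.97%, 12.2% and 4.74% of all genes were higher and 8.12%, 9.53% and 1.84% lower.

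Genes of other phases of the cell cycle were called in both directions in IR against NT, as were all genes tested, of which 15.1% were higher and 15.4% lower. Of 30 DNA replication genes, 5 rose and 3 fell, and the list's median log2 fold change was -0.02. The helicase subunit Mcm2 rose from 6.46 ± 1.05 to 9.81 ± 1.39 CPM (log2 fold change 0.59 ± 0.13, adjusted p = 0.00184), and the polymerase subunit Pola1 fell from 6.16 ± 0.362 to 3.64 ± 0.202 CPM (-0.75 ± 0.14, adjusted p = 0.000477). Of 17 cell cycle regulators of transcription, 2 rose and 2 fell, with E2f1 at 22.5 ± 2.42 CPM in NT and 37.3 ± 3.96 in IR (0.73 ± 0.11, adjusted p = 8.96e-05). Of 11 G1 cyclins and cell cycle inhibitors tested, 1 rose (Ccnd1) and 2 fell (Cdk4 and Cdkn1b).

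Marker lists of cell types that can divide in forebrain moved beside the members as follows, and their part in the results was not tested. The 14 microglia and macrophage markers summed to 684 to 812 CPM in NT, 39.5 to 88.6 in PLX1X, 32.2 to 66.8 in PLX3X_CD0, 323 to 330 in PLX3X_CD30 and 311 to 357 in IR. All 14 fell in PLX1X and in PLX3X_CD0, groups in which 0 and 1 mitotic members were called and 8.12% and 9.53% of all genes were lower than in NT. In IR against NT 10 of the 14 fell and 9 mitotic members fell, where 15.4% of all genes were lower. In PLX3X_CD30 against NT 8 of the 14 fell and 0 mitotic members were called, where 1.84% of all genes were lower. Between IR and PLX3X_CD30 the sums overlapped, with 1 of 14 markers called (higher in IR), and 6 mitotic members fell in that comparison. There 7.63% of all genes were higher and 8.88% lower. These shares differ between comparisons, so the counts cannot be set against each other directly.

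The 15 neuroblast and immature neuron markers had a median log2 fold change of -0.50 in IR against NT, with 5 lower, among them Sox11 (16.7 ± 2.97 CPM in NT and 9.24 ± 1.28 in IR, -0.86 ± 0.13, adjusted p = 9.12e-05), and 1 higher, Tubb3 (264 ± 42.1 and 416 ± 25.1 CPM, 0.66 ± 0.08, adjusted p = 9.63e-06). Their sum, 809 to 888 CPM in NT and 851 to 879 in IR, overlapped. Tubb3 alone held 264 CPM of the NT sum and 416 CPM of the IR sum, so its rise offset lower levels elsewhere in the list. Of 12 oligodendrocyte precursor markers, 5 fell and 1 rose in IR against NT, with sums of 579 to 675 and 517 to 530 CPM, but the sums were also lower than in NT in PLX1X (480 to 494 CPM), PLX3X_CD0 (448 to 497) and PLX3X_CD30 (495 to 515). Bcas1 of that list, which also marks newly formed oligodendrocytes, was at 151 ± 26.3 CPM in NT and 69.1 ± 3.07 in IR (-1.12 ± 0.09, adjusted p = 3.06e-07). The mean precursor sum was 625 CPM in NT and 526 CPM in IR, and most of that difference lay in Bcas1. The precursor marker that rose was Cspg4 (log2 fold change 0.63, adjusted p = 3.13e-05). Of 11 neural stem and progenitor markers, 2 fell in IR (Hes5 and Lpar1), and the sums, 227 to 306 CPM in NT and 213 to 261 in IR, overlapped. These sums were 195 to 221 CPM in PLX1X, 186 to 232 in PLX3X_CD0 and 204 to 221 in PLX3X_CD30. Of the lymphocyte and bone marrow list 9 of 13 markers were tested, 1 fell in IR against NT (Ptprc), and Ms4a1 was at 0 in every group. Of 7 endothelial markers 2 fell (Flt1 and Ly6c1). Of 6 neuron markers 3 rose (Slc17a7, Syt1 and Rbfox3), with sums of 5916 to 6727 CPM in NT and 7635 to 8451 CPM in IR. The neuron sums were also higher than in NT in PLX1X (7114 to 7783 CPM), PLX3X_CD0 (7351 to 8014) and PLX3X_CD30 (7585 to 8130).

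**Figure D5:**
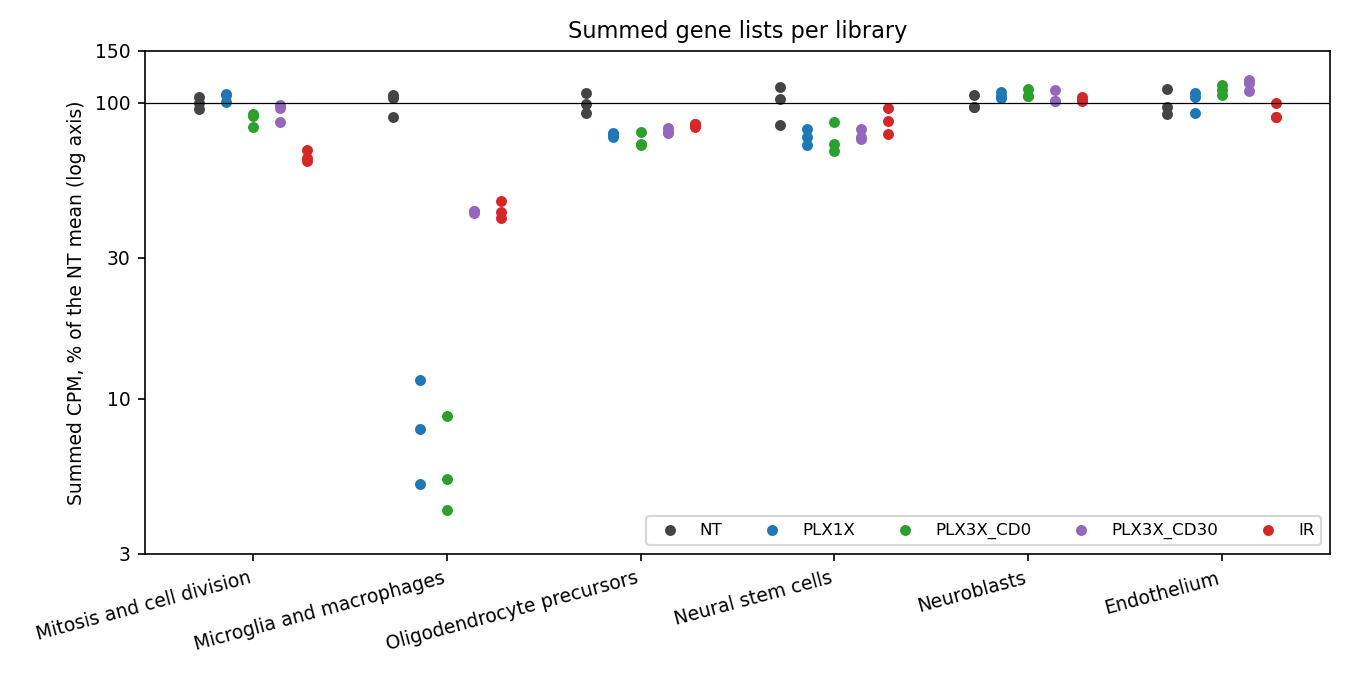
Summed CPM of the mitosis genes and of 5 cell type marker lists per library, as a percentage of the NT mean on a log axis, by group. The mitosis genes are lowest in IR, at 66.1% of NT on average, and the microglia and macrophage markers are lowest in PLX3X_CD0 and PLX1X, at 6.1% and 8.22%. The neuroblast sum includes Tubb3, which rose in IR while other markers of that list fell.

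Leaving out single libraries, both those that stood apart and others, changed the counts of members called as follows. Counts of all genes called moved as well, and their ranges are given further below. Without IR replicate 1, 8 members fell against NT, 8 against PLX1X, 4 against PLX3X_CD0 and 4 against PLX3X_CD30. Without PLX3X_CD0 replicate 1, 1 member (Smc2) fell in IR against PLX3X_CD0 in place of 5, and no member was called in PLX3X_CD0 against NT. Without IR replicate 2, 6, 5, 1 and 3 members were called against NT, PLX1X, PLX3X_CD0 and PLX3X_CD30. All genes called were then 5097, 4559, 3029 and 1975, in place of 6658, 6197, 4687 and 3597. Without PLX3X_CD0 replicate 2 or IR replicate 3, 2 and 3 members fell against PLX3X_CD0, without PLX1X replicate 1 6 fell against PLX1X, and without PLX3X_CD30 replicate 3 3 fell against PLX3X_CD30.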

How the data were processed

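RNA of 15 mouse forebrain libraries was analysed from the authors' table of raw counts per gene. The authors also deposited CPM, which equalled each count over its library total to within 5e-07 and was otherwise not used. The submitters' processing notes name DRAGEN, DESeq2 and the build mm10, without a role. Versions and annotation are also not given in the sources read for this text. Of 55774 rows, 287 repeats of an identifier with identical counts were removed. Even numbers made up 70.6% to 74.7% of a library's counts between 1 and 4, so single counts may not be independent fragments; the tests rest on the scatter among libraries. No replicate pair agreed within sampling noise (chi-square per degree of freedom 3.94 to 27.0).

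Groups came from the library names in the descriptions and replicate numbers from the titles. Genes were tested in edgeR 4.0.16 (R 4.3.3) with TMM factors, filterByExpr by group, 1 mean per group over all 15 libraries, robust quasi-likelihood fitting (the common biological coefficient of variation was 12.1%) and two-sided F-tests of 8 comparisons. The SE was the size of the log2 fold change divided by the square root of F. Positions and transcript lengths came from GENCODE mouse release M21, and promoters from RefSeq. The kit does not mark strand: 12 members share exon bases with another gene, 6 of them over 10%, and Ccnb1, Ccnb2 and Kif4 have pseudogene copies, so their counts are uncertain.

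Members called in any comparison and the 8 with the highest mean CPM, 19 in all, are given with full statistics. From each other list, up to 4 called genes with the smallest adjusted p could be named; others that a count of 5 or fewer covers were named after their values were seen. The members, the 12 other lists (218 genes) and the tests were chosen with earlier results of these data known. Alternatives were DESeq2 1.42.0, RLE factors, no filter, a stricter filter (3 libraries with a CPM of 1 or more), a fit of the 6 libraries in question, a block by replicate number, and leaving out each library.

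The fit was tested on simulated data with the libraries' levels and scatter but few changes between IR and NT (21374 genes tested, 200 of them changed). At the members' levels it called 4% of 50 genes lowered 1.5-fold and 38% of 50 lowered 2.5-fold, and above those levels 80% and 94%. Of all calls, 7.69% were unchanged genes. In the data 6658 genes were called in IR against NT, so the adjustment was less strict there. The simulated shares may therefore understate what the fit could find.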

Additional observations from a re-analysis of the deposited data

How the results depend on the processing

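Over the 19 members described in full and the 8 comparisons, no alternative reversed a log2 fold change that had been called: 3048 values stayed on their side of the threshold, 95 called values lost significance and 25 gained it. Values that were not called could change sign, such as Cdc20 in IR against NT, from -0.16 to 0.35. Fitting only the 6 libraries compared gave 2143 genes in place of 3939 for PLX1X against NT, 2601 in place of 4732 for PLX3X_CD0 against NT and 359 in place of 1432 for PLX3X_CD30 against NT. Members called in PLX3X_CD0 against NT were 2 with DESeq2, without the filter or with the stricter filter, and 0 with the 6 libraries. In PLX3X_CD30 against NT 2 were called without the filter, and in IR against PLX3X_CD0 3 were called without the filter, with the 6 libraries or with the replicate block. Without the filter, 1395 genes in place of 828 were called between PLX3X_CD30 and PLX3X_CD0. The cause of these shifts was not tested, other than that fewer libraries or more genes entered. The stricter filter tested 20 members.

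With plain library totals in place of TMM, all genes shifted against NT by the difference in mean log2 TMM factor. This was -0.134 in IR, -0.0948 in PLX3X_CD0, -0.0803 in PLX1X and -0.0751 in PLX3X_CD30. The summed member level in PLX1X then turned from 0.07 to -0.0147 (log2 against NT), that in PLX3X_CD0 moved from -0.18 to -0.28 and that in IR from -0.60 to -0.73.

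Leaving out 1 library at a time, members called ranged from 6 to 10 for IR against NT, 5 to 12 against PLX1X, 1 to 5 against PLX3X_CD0, 3 to 6 against PLX3X_CD30, 0 to 1 for PLX1X against NT, 0 to 2 for PLX3X_CD0 against NT, 0 to 1 for PLX3X_CD30 against NT, and 0 to 0 between the PLX3X groups. Genes called ranged from 5097 to 6827, 4559 to 7098, 3029 to 5637, 1975 to 4617, 2696 to 4030, 3499 to 5114, 608 to 1714 and 384 to 1203 in the same order. The summed level against NT ranged from -0.63 to -0.56 in IR, 0.04 to 0.10 in PLX1X, -0.21 to -0.14 in PLX3X_CD0 and -0.13 to -0.04 in PLX3X_CD30.

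The replicate numbers did not pair the libraries: the deviations of same-numbered libraries correlated from -0.18 to 0.39, 7 of 30 above 0.1, and 10 of 30 were closest to their own number. With the replicate block, 0, 1, 0, 9, 9, 3, 6 and 0 members were called in PLX1X, PLX3X_CD0, PLX3X_CD30 and IR against NT, in IR against PLX1X, PLX3X_CD0 and PLX3X_CD30, and between the PLX3X groups. In PLX3X_CD0 against NT the member called was then Mki67 (adjusted p = 0.0314) in place of Aurkb (adjusted p = 0.0686). A member that was not called is not shown to be unchanged. The simulation missed most 2.5-fold changes at the members' levels, but with few changed genes its adjustment was stricter than in the data.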
